A study of Mus musculus with 10 samples.

Results

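The cytokines IL-7 and IL-15 and the receptor chains that serve them were followed in melanoma tumors grown in wild-type (WT) or Siah2 KO mice. The set comprised the cytokine genes Il7 and Il15 and the receptor genes Il7r, Il15ra, Il2rb, Il2rg and Il21r, taken by symbol from the deposited table, and all 7 were among the 770 genes measured there. Of the 7 genes, 4 rose in Siah2 KO tumors, as did 31.3% of all genes measured. The 4 were the receptor chains Il7r, Il15ra, Il2rb and Il2rg. Neither cytokine passed the test, and Il7 was close to the background of the assay. Il7r rose most, by 1.97 on the log2 scale, and it alone of the 7 was called higher relative to leukocyte genes.

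IL-7 is made mainly by stromal and epithelial cells and keeps naive and memory T cells alive through a receptor built of the IL-7 receptor alpha chain (Il7r) and the common gamma chain (Il2rg). IL-15 is usually held by its own alpha chain (Il15ra) on the surface of one cell and shown to a neighbouring lymphocyte that carries the beta chain (Il2rb) and the common gamma chain, and it sustains NK cells and CD8+ T cells. The IL-21 receptor (Il21r) uses the same gamma chain, and all of these receptors signal through the kinases Jak1 and Jak3 and through STAT factors.

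The study asked how loss of the ubiquitin ligase Siah2 in the host changes the immune response to a tumor. YUMMER1.7 cells, an immunogenic mouse melanoma line with mutant Braf and without Cdkn2a, were injected under the skin of WT mice or Siah2-/- mice, young males of the C57BL/6 background. Tumors were taken at day 11 by the sample labels and at day 10 by the series text and the study's account of this assay, and the day was not settled here. From each tumor 100 ng of total RNA was measured on the NanoString nCounter mouse PanCancer Immune panel, which counts RNA molecules with barcoded probes. There were 5 WT tumors (numbers 2, 3, 4, 5 and 6 in the labels) and 5 Siah2 KO tumors (numbers 1, 2, 3, 5 and 6). The series text speaks of Yumm1.5 cells and Rnf5-/- mice instead, and the labels of the samples were followed on both. The deletion is carried by every cell of the Siah2 KO host and not by the injected cells, so each tumor was a mixture of Siah2-bearing tumor cells and host cells of either genotype. The panel has no Siah2 probe, and the genotype could not be checked in the data. The labels do not say whether each tumor came from a separate mouse, so the p-values measure the spread between these samples.

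Before the scaling to reference genes, each tumor gave between 382877 and 581603 counts. The scaling factors were 0.958, 0.974, 0.918, 1.32 and 0.964 in WT tumors 2 to 6. In Siah2 KO tumors 1, 2, 3, 5 and 6 they were 1.11, 1.60, 1.26, 1.48 and 1.03. After scaling, the summed values ran from 512955 to 585366 in WT and from 575773 to 741789 in Siah2 KO. Over all genes, 316 of 770 differed between the genotypes (limma, Benjamini-Hochberg adjusted p under 0.05), with 241 genes up and 75 down in the Siah2 KO group, and the median log2 fold change was 0.24. When every tumor was set to the same median, that median moved by -0.25 and the calls split into 163 higher and 152 lower, and under quantile normalization into 153 and 181. Of the panel's 3 melanoma and neural crest genes, S100b and Cspg4 fell and Mcam did not pass the test, and their summed level was 438 to 594 normalized counts in WT tumors and 224 to 405 in Siah2 KO tumors. S100b lay near the floor of the assay in every Siah2 KO tumor, at 2.51 normalized counts or less.

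Of the 7 genes, 4 were called in either direction, against 41.0% of all genes measured, and the same 4 were higher in Siah2 KO, against 31.3% of all genes. For these 4 genes the lowest Siah2 KO tumor also exceeded the highest WT tumor, a pattern seen in 24.5% of all genes. The median over all genes was positive on this scale, so each value below is best read beside 0.24.

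**Figure D1:**
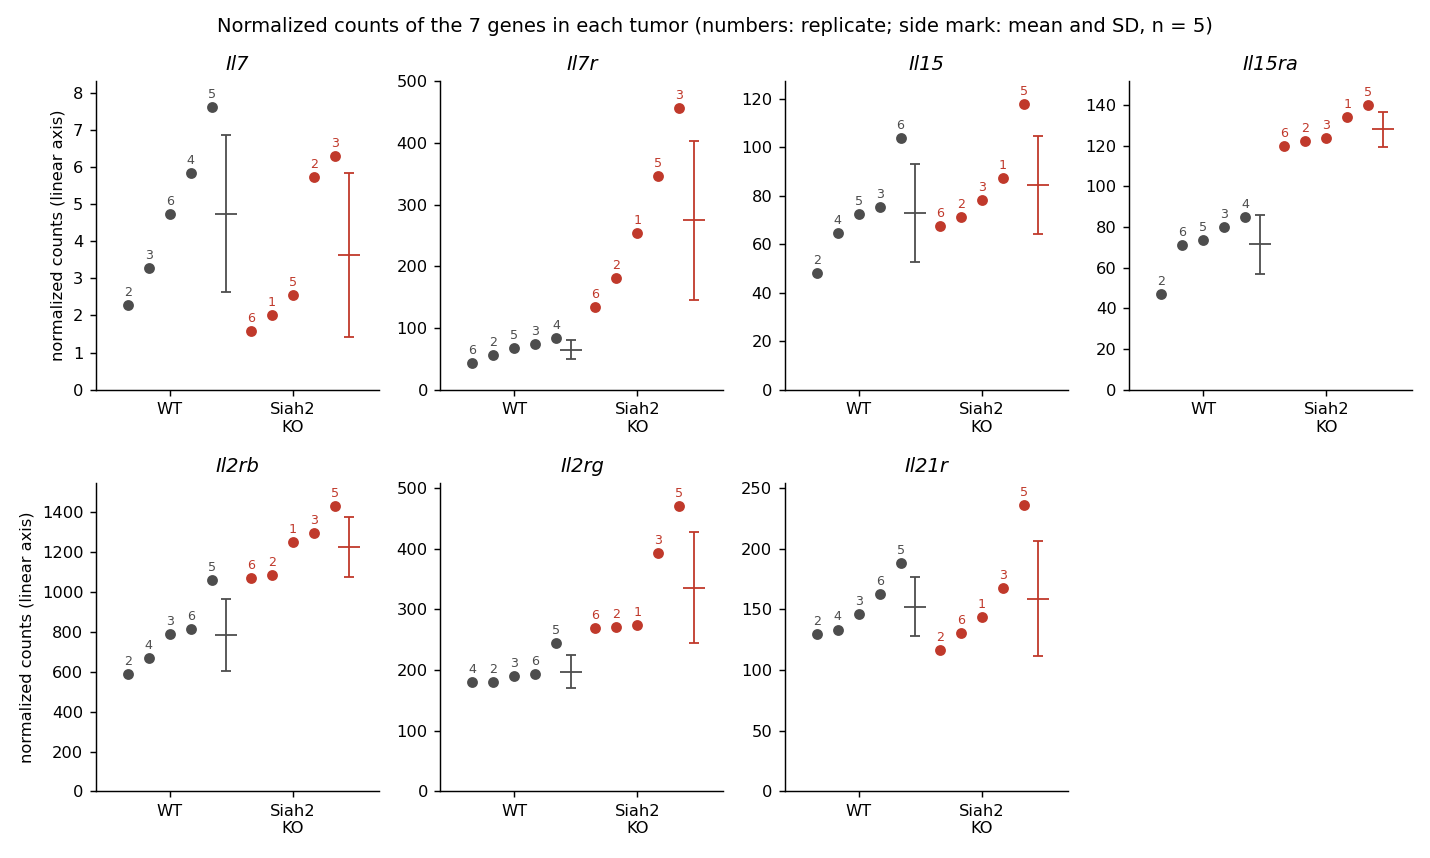
Normalized counts (vertical axes, linear and starting at 0, with a range of their own in each panel) of the 7 genes in 5 WT tumors (grey) and 5 Siah2 KO tumors (red). Points are tumors with their replicate number, and the mark beside each group is the mean with its SD. For Il7r, Il15ra, Il2rb and Il2rg no Siah2 KO tumor reached down to a WT tumor, while the groups overlapped for Il7, Il15 and Il21r.

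Il7r encodes the alpha chain of the IL-7 receptor, which is also part of the receptor for thymic stromal lymphopoietin. Its normalized counts were 55.9, 74.4, 83.8, 67.0 and 43.3 in WT tumors 2 to 6, and 254, 182, 456, 347 and 134.5 in Siah2 KO tumors 1, 2, 3, 5 and 6. The groups did not overlap, and tumor 3 was the highest and tumor 6 the lowest of the Siah2 KO group. The means were 64.9 ± 15.8 in WT and 275 ± 129 in Siah2 KO (SD, n = 5 each). Il7r rose 3.91-fold, a log2 fold change of 1.97 with an SE of 0.32 (limma, adjusted p = 0.0012), and it ranked 14 from the top among the 770 genes by log2 fold change. The two-sided exact permutation p was 0.0079, the smallest that the 252 divisions of 10 tumors into 5 and 5 can give. The Siah2 KO tumors also differed more among themselves, with a coefficient of variation of 47.1% against 24.4% in WT.

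Il2rg, the common gamma chain of the receptors for IL-2, IL-4, IL-7, IL-9, IL-15 and IL-21, had 180.4, 190.4, 180.2, 244 and 193 normalized counts in WT tumors 2 to 6. In Siah2 KO tumors 1, 2, 3, 5 and 6 it had 274, 271, 393, 469 and 269. The groups did not overlap, although WT tumor 5 lay apart from the other WT tumors and close to the 3 lower Siah2 KO tumors. The means were 197.5 ± 26.5 and 335 ± 91.5 (SD, n = 5 each). Il2rg rose 1.66-fold (log2 fold change 0.73, SE 0.18, limma adjusted p = 0.0079).

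Il2rb, the signalling beta chain that the receptors for IL-2 and IL-15 share, is abundant on NK cells and on activated and memory CD8+ T cells. It had 587, 791, 669, 1059.6 and 813 normalized counts in WT tumors 2 to 6, and 1249, 1083, 1293, 1431 and 1072 in Siah2 KO tumors 1, 2, 3, 5 and 6. WT tumor 5 almost reached the lowest Siah2 KO tumor, and the groups did not overlap. The means were 784 ± 179.6 and 1226 ± 151 (SD, n = 5 each). Il2rb rose 1.59-fold (log2 fold change 0.66, SE 0.16, limma adjusted p = 0.0077), but under quantile normalization the log2 fold change was 0.24 with an adjusted p of 0.11.

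Il15ra encodes the alpha chain that binds IL-15 and presents it to neighbouring cells. Its normalized counts were 47.3, 80.3, 84.8, 73.6 and 71.2 in WT tumors 2 to 6, and 134.0, 123, 124, 140.0 and 120.1 in Siah2 KO tumors 1, 2, 3, 5 and 6. The Siah2 KO tumors lay close together, with a coefficient of variation of 6.65%, and all were above the highest WT tumor. The means were 71.4 ± 14.5 and 128 ± 8.51 (SD, n = 5 each). Il15ra rose 1.81-fold (log2 fold change 0.86, SE 0.15, limma adjusted p = 0.0016). For Il2rg, Il2rb and Il15ra the exact permutation p was again 0.0079. All 3 lost the call when the reference gene factors were replaced by scaling to the positive control probes (log2 fold changes 0.57, 0.50 and 0.70, adjusted p = 0.31, 0.40 and 0.20), a setting in which 95 of the 770 genes passed and Il7r kept its call.

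Il15, the cytokine that Il15ra presents, had 48.2, 75.4, 64.6, 72.3 and 104.0 normalized counts in WT tumors 2 to 6 and 87.4, 71.3, 78.3, 118 and 67.5 in Siah2 KO tumors 1, 2, 3, 5 and 6. The groups overlapped over most of their range. The means were 72.9 ± 20.3 and 84.5 ± 20.1 (SD, n = 5 each), and the log2 fold change of 0.22 had a 95% confidence interval of -0.25 to 0.70 (limma, adjusted p = 0.42). Its sign turned under median scaling (-0.039) and quantile normalization (-0.10).

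Il7 was close to the background of the assay. Its normalized counts were 2.27, 3.28, 5.85, 7.61 and 4.72 in WT tumors 2 to 6 and 2.0, 5.72, 6.30, 2.54 and 1.59 in Siah2 KO tumors 1, 2, 3, 5 and 6. It exceeded the highest of the 8 negative control probes in 5 of the 10 tumors. The log2 fold change was -0.36 with a 95% confidence interval of -1.16 to 0.43 (limma, adjusted p = 0.45), so a change of this cytokine in either direction was not detectable at this depth.

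Il21r, the alpha chain of the IL-21 receptor, is carried by B cells, activated T cells and NK cells. It had 129.7, 147, 133, 188 and 163 normalized counts in WT tumors 2 to 6, and 144, 116, 168, 236 and 130.4 in Siah2 KO tumors 1, 2, 3, 5 and 6. The WT range lay inside the Siah2 KO range, and the means were 152 ± 24.1 and 159 ± 47.1 (SD, n = 5 each). The log2 fold change was 0.03 with a 95% confidence interval of -0.40 to 0.46 (limma, adjusted p = 0.91). It was -0.23 under median scaling, -0.24 under quantile normalization and -0.13 under positive control scaling.

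**Figure D2:**
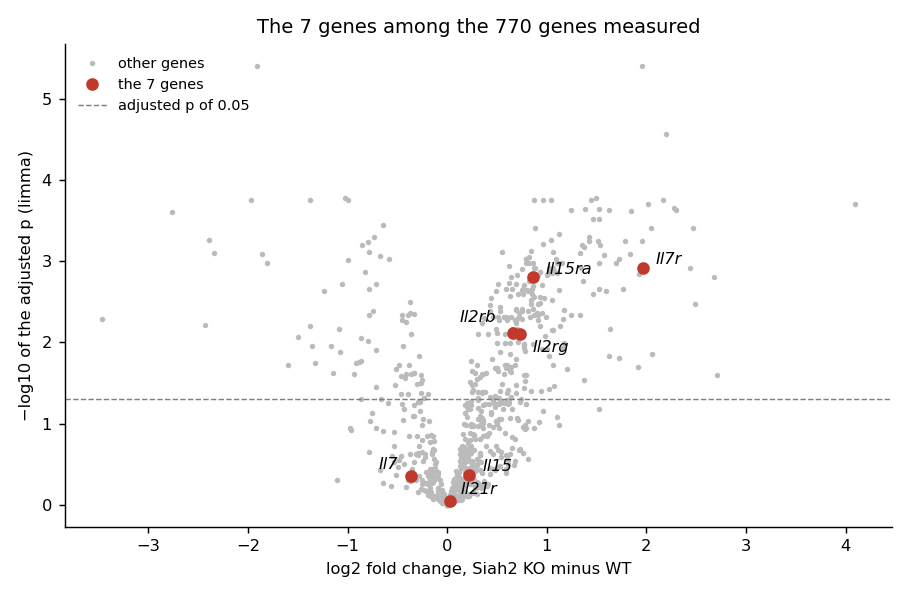
Log2 fold change, Siah2 KO minus WT (horizontal axis), against the negative log10 of the limma adjusted p (vertical axis) for the 770 genes (grey), with the 7 genes in red and a dashed line at an adjusted p of 0.05. Il7r lies at 1.97 far to the right, Il15ra, Il2rb and Il2rg lie between 0.66 and 0.86 above the line, and Il7, Il15 and Il21r lie below it.

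Of the genes that rose, the promoters of Il7r, Il2rg and Il15ra are shown, beside that of Il21r. They are shown because these genes take part in the same receptor system and differed in response. A RefSeq table of promoters (GRCm38.p6) held 5 promoters for 4 of the 7 genes, each from 250 bases before to 50 bases after a start site. It held none for Il7, Il15 and Il2rb, so the promoter of Il2rb, which also rose, is missing here. The sequences run 5′ to 3′ on the strand of the gene, and capitals mark matches to a STAT motif (TTCNNNGAA), an IRF motif (GAAANNGAA) or an ETS motif (CCGGAAG), each searched on both strands together with a RUNX motif (TGTGGTT). The Il7r sequence lies at chr15:9529877-9530126 on the minus strand, that of Il2rg at chrX:101268256-101268505 on the minus strand, that of Il15ra at chr2:11705043-11705292 on the plus strand with a further 30 bases at chr2:11705732-11705761 from its other start site, and that of Il21r at chr7:125603179-125603428 on the plus strand.
Il7r: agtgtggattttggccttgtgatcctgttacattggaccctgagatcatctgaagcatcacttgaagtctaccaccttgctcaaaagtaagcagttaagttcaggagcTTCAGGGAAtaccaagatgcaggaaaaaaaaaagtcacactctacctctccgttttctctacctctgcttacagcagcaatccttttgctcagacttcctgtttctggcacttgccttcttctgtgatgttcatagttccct
Il2rg: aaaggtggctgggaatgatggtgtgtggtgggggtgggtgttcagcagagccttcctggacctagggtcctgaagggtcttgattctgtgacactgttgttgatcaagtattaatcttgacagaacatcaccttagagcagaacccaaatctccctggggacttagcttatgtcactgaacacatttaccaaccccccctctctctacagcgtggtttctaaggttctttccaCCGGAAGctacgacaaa
Il15ra: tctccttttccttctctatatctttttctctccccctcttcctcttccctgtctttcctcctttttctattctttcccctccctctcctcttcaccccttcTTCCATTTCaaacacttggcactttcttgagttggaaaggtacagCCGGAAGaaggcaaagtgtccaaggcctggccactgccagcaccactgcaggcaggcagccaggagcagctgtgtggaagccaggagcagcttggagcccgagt
Il15ra, other start site: aagcaaaagcGAAAGCGAAtactccttagc
Il21r: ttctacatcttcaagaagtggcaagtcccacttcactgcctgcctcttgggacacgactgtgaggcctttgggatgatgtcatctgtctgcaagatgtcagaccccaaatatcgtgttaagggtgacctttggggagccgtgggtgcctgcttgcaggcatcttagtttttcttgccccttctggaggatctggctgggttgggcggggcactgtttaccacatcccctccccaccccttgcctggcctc

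In the Il7r promoter the STAT match TTCAGGGAA began at position -142 from the start site, and a RUNX match began at position 4, past the stretch shown. Both Il15ra start sites had an IRF match, TTCCATTTC at position -149 of the first and GAAAGCGAA at position 31 of the other. An ETS match began at position -104 in Il15ra and at position -17 in Il2rg. None of the 4 motifs was found in the Il21r promoter. These letters are common, since among 32851 promoters of the same length 8.56% held the IRF motif, 8.30% the STAT motif, 8.86% the ETS motif and 5.27% the RUNX motif. The matches are given as a description of the sequence and do not show that a factor binds there.

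Il7r, Il2rb, Il2rg and Il21r are carried mainly by leukocytes, and markers of leukocytes also moved with genotype. In bulk tumors a difference in the number of cells of a type and a difference in RNA per cell cannot be told apart. Of 8 leukocyte genes, 7 rose, with a median log2 fold change of 0.68, against 31.3% of all genes higher. Of 11 T cell genes 7 rose, among them Cd8a and Cd8b1 of the CD8 coreceptor. Cd4 did not pass (67.6 ± 11.7 against 55.5 ± 10.6 normalized counts, limma adjusted p = 0.19). All 5 NK cell genes rose, and their summed level of 658 to 868 normalized counts in WT and 1175 to 1747 in Siah2 KO did not overlap. The T cell sum was 675 to 882 in WT and 896 to 1640 in Siah2 KO. All 4 fibroblast genes fell, with a summed level of 16494 to 21344 in WT and 10332 to 12326 in Siah2 KO.

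To set the 7 genes beside this shift, the median log2 level of the 8 leukocyte genes was subtracted in every tumor, which removed a shift of 0.72 (exact permutation p = 0.0079). Relative to leukocyte genes Il7r was higher by 1.25 on the log2 scale (SE 0.32, limma adjusted p = 0.0071), and it was the only one of the 7 genes called higher, against 6.75% of all genes. On this scale 4 of 5 Siah2 KO tumors exceeded the WT maximum, and Siah2 KO tumor 6 did not. Il15ra, Il2rb and Il2rg had log2 fold changes of 0.14, -0.05 and 0.01 on this scale (adjusted p = 0.57, 0.78 and 0.94).

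Relative to leukocyte genes Il21r was lower, with log2 differences of -1.60, -1.44, -1.31, -1.31 and -1.59 in WT tumors 2 to 6 and -2.13, -2.40, -2.06, -1.89 and -2.20 in Siah2 KO tumors 1, 2, 3, 5 and 6. All 5 Siah2 KO tumors lay below the lowest WT tumor, and the change was -0.69 (limma, adjusted p = 0.0016). The subtraction lowered most genes, and the median log2 fold change over all genes was -0.48 on this scale. Each value here is best read beside that median. Il15 and Il7 were also called lower on this scale, by -0.49 and -1.08 (adjusted p = 0.025 and 0.024), each losing the call in 9 of the alternatives run. Since Il7 was near the background, its value on this scale follows the level of the leukocyte genes and is not read as a change of the cytokine. With 3 of 7 genes lower, the share stood against 47.3% of all genes.

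Relative to the median of the 11 T cell genes, which itself was higher by 0.60 (exact permutation p = 0.040), Il7r had values of -0.05, 0.33, 0.66, 0.0 and -0.48 in WT tumors 2 to 6 and of 1.09, 1.02, 2.55, 1.41 and 1.24 in Siah2 KO tumors 1, 2, 3, 5 and 6. The groups again did not overlap. The change was 1.37 (SE 0.30, limma adjusted p = 0.0047), which is 2.59-fold, and Il7r was the only one of the 7 called higher, against 5.58% of all genes. In Siah2 KO tumor 6 the T cell median was 5.84, inside the WT range of 5.75 to 6.09, and Il7r in that tumor was still above the highest WT tumor. Il21r was lower by -0.57 on this scale without passing (limma, adjusted p = 0.086), beside a median of -0.36 over all genes. Il21r passed when Siah2 KO tumor 6 was left out (limma, adjusted p = 0.024). Il15ra, Il2rb and Il2rg stood at 0.26, 0.07 and 0.13 (adjusted p = 0.46, 0.85 and 0.70).

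**Figure D3:**
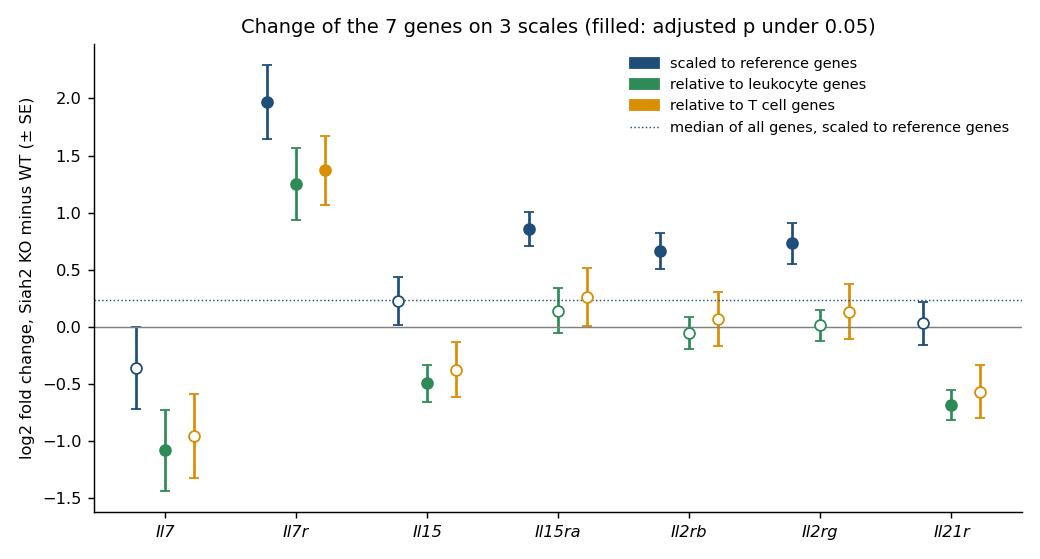
Log2 fold change, Siah2 KO minus WT, with its SE (vertical axis) of each gene (horizontal axis) on 3 scales: as deposited, relative to leukocyte genes and relative to T cell genes. Filled points passed an adjusted p of 0.05, and Il7r was filled on all 3 scales (1.97, 1.25 and 1.37). Il21r moved from 0.03 to -0.69 relative to leukocyte genes, while the median over all genes moved from 0.24 to -0.48.

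**Figure D4:**
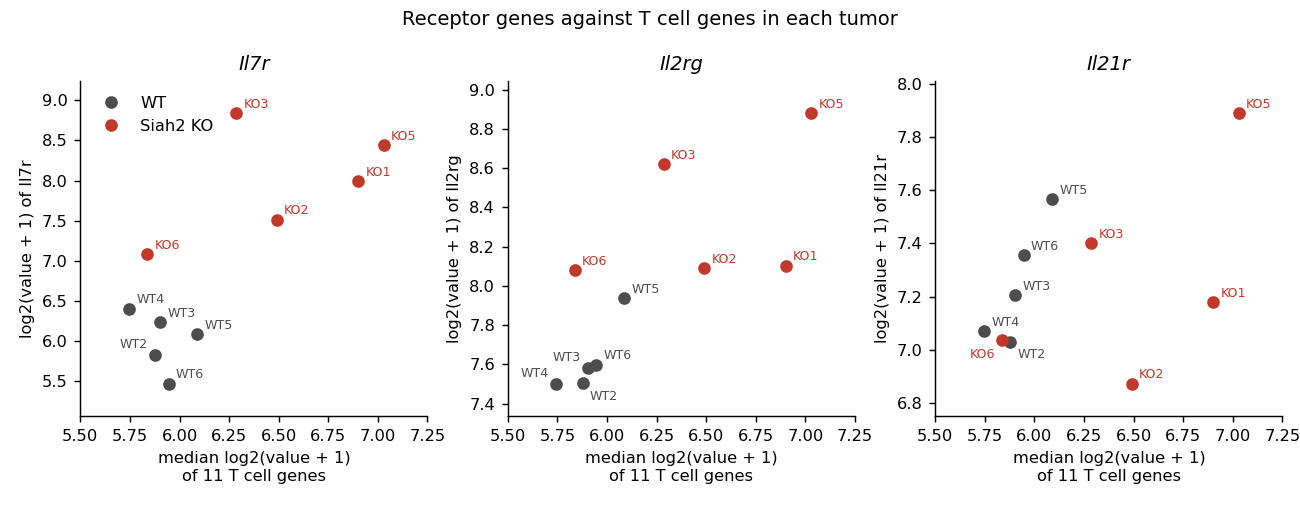
Log2 level of Il7r, Il2rg and Il21r (vertical axes) against the median log2 level of 11 T cell genes (horizontal axes) in 5 WT tumors (grey) and 5 Siah2 KO tumors (red). Siah2 KO tumor 6 shares its T cell level with the WT tumors at 5.84 and lies above them for Il7r and Il2rg, and inside their range for Il21r.

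Whether 2 genes changed by different amounts was tested on their log2 difference within each tumor, for 4 pairs with the exact permutation test and p-values adjusted over the 4. Of these, the pair of Il7r and Il7 is not given, since Il7 did not exceed the highest negative control probe in 5 of the 10 tumors and the difference would mainly restate the value of Il7r. Il15ra rose relative to its cytokine Il15 by 0.63 (exact permutation p = 0.016, adjusted p = 0.021), with 4 of 5 Siah2 KO tumors above the WT range. Il21r went down relative to its partner Il2rg, with a change of -0.70 (exact permutation p = 0.0079, adjusted p = 0.016), with all 5 Siah2 KO tumors below the WT tumors. For Il2rb and Il2rg, the chains that share the work in the IL-15 receptor, the difference of the changes was -0.07 (exact permutation p = 0.64).

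The genes were also compared by how they varied from tumor to tumor within the genotypes. Deviations of log2 values from the group mean were correlated over the 10 tumors, which share 1 scaling factor per tumor, so the values describe likeness alone. Il7r varied most like Hif1a (hypoxia-inducible factor, r = 0.95), Il1rl1 (the IL-33 receptor, r = 0.95) and Ccr7 (the lymph node homing receptor, r = 0.93), out of 581 other genes that averaged 20 normalized counts or more. Of these, Hif1a and Il1rl1 rose between genotypes (log2 fold changes 0.63 and 1.52, limma adjusted p = 0.0018 and 0.0011) and Ccr7 had -0.65 (adjusted p = 0.12). Il15 was most like the kinase Atm (r = 0.90), the NKG2D receptor Klrk1 (r = 0.90) and the Fc receptor Fcgr1 (r = 0.89). Il15ra was most like Il11ra1, a chain of the IL-11 receptor (r = 0.93), the growth factor Pdgfc (r = 0.82) and Nlrc5, an activator of MHC class I genes (r = 0.81). Between genotypes Il11ra1 and Pdgfc fell (log2 fold changes -0.94 and -0.80, limma adjusted p = 0.025 and 0.00059), opposite to Il15ra. Nlrc5 rose (0.82, adjusted p = 0.0017).

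Il2rb was most like Thy1, a surface protein of T cells (r = 0.92), the lymphotoxin beta receptor Ltbr (r = 0.90) and the kinase Abl1 (r = 0.87). Between genotypes Thy1 rose (log2 fold change 0.71, limma adjusted p = 0.0079), Ltbr did not pass (-0.09, adjusted p = 0.47) and Abl1 fell (-0.23, adjusted p = 0.048). Il2rg was most like the mucin Muc1 (r = 0.96), the leukocyte integrin chain Itgb2 (r = 0.96) and the cholesterol transporter Abcg1 (r = 0.94). Il21r was most like Abcg1 (r = 0.98), the MHC class II gene H2-Eb1 (r = 0.97) and Fcer1g, the signalling chain of Fc receptors (r = 0.97). Within the set, Il2rg and Il21r tracked each other (r = 0.93) although their changes with genotype differed, and Il7r and Il15 had the lowest correlation (r = 0.19). Il7 was left out for its low counts.

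Among other genes of the common gamma chain family none of 6 passed the test, and 4 of them (Il2, Il4, Il9 and Il21, all cytokines) had a mean under 20 normalized counts. Il2ra, the IL-2 receptor alpha chain, had 234 ± 81.7 in WT and 330 ± 59.4 in Siah2 KO (SD, n = 5 each, limma adjusted p = 0.087). Il4ra, the IL-4 receptor alpha chain, had 699 ± 87.1 and 702 ± 115 (log2 fold change 95% confidence interval -0.31 to 0.31). The median log2 fold change of the family was -0.04, beside 0.24 over all genes.

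Of 8 JAK-STAT genes, 4 rose and none fell, with a median of 0.28, against 31.3% of all genes higher. Among those that rose were the transcription factor Stat3 (log2 fold change 0.31, limma adjusted p = 0.041) and the feedback inhibitors Socs1 (0.98, adjusted p = 0.0083) and Socs3 (0.69, adjusted p = 0.0040). The kinases joined to these receptors did not pass, with log2 fold changes of 0.05 for Jak1 and 0.04 for Jak3 (adjusted p = 0.62 and 0.85, 95% confidence intervals -0.11 to 0.21 and -0.29 to 0.37). Stat5b, a STAT factor that the IL-7 and IL-15 receptors use, stood at 0.24 (adjusted p = 0.10) and Stat6 at 0.18 (adjusted p = 0.059).

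Of 8 genes that IL-7 or IL-15 can raise in lymphocytes, 5 rose, with a median of 0.69, against 31.3% of all genes higher. All 5 NK cell genes, Cd8a and Cd8b1 rose in the same tumors, and the part of these cells was not tested. The cytotoxic genes Gzmb and Prf1 rose by 1.85 and 1.34 on the log2 scale (adjusted p = 0.00024 and 0.0012), the cytokine Ifng by 1.92 (adjusted p = 0.0015), Klrk1 by 0.87 (adjusted p = 0.0027) and the growth regulator Myc by 0.52 (adjusted p = 0.0019). Bcl2, the survival gene that IL-7 is known for, had 62.7 ± 13.0 and 71.5 ± 21.4 normalized counts (SD, n = 5 each, adjusted p = 0.55). Bcl2l1, a related survival gene, stood at 0.23 (adjusted p = 0.11) and Cd44, a marker of antigen-experienced T cells, at -0.36 (adjusted p = 0.36). Cd44 had low values, 20.6 ± 7.16 normalized counts in WT and 16.1 ± 5.29 in Siah2 KO (SD, n = 5 each). It was the 1 gene of this list with a mean under 20, so its value says little about T cells.

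Interferons raise Il15 and Il15ra in many cell types, and their response genes were listed for that reason. All 8 interferon gamma response genes rose, with a median of 0.81, from 0.61 for Irgm2, a GTPase of cell-autonomous defence, to 2.46 for Gbp2b, a guanylate-binding protein. Of 7 type I interferon response genes 5 rose, with a median of 0.60. Both counts stand against 31.3% of all genes higher. Mx1, in the type I list, lay at the floor of the assay, with a mean of 1.30 normalized counts in WT and in Siah2 KO. A change of Mx1 could not be seen at that level. In the same tumors Il15ra rose by 0.86 and Il15 did not pass the test.

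Naive and memory T cells carry much Il7r, and 3 genes of these cells did not pass the test. The transcription factor Tcf7 had 159 ± 11.9 and 144 ± 26.3 normalized counts and Ccr7 189 ± 46.4 and 127 ± 57.9 (SD, n = 5 each, limma adjusted p = 0.37 and 0.12), and the costimulatory receptor Cd27 stood at 0.48 on the log2 scale (adjusted p = 0.063). B cells also carry Il21r, and all 6 B cell genes had a mean under 20 normalized counts, with a summed level of 17.6 to 26.5 in WT and 21.4 to 54.5 in Siah2 KO.

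Markers of other host cells were counted in the same fit. Of 7 macrophage genes 2 rose and 2 fell, and of 5 dendritic cell genes 1 rose. Of 4 neutrophil genes 1 rose, and of 5 endothelial genes 1 rose and 1 fell. A mean under 20 normalized counts was found for 3 of the dendritic cell genes, 2 of the neutrophil genes and 1 of the endothelial genes. Over all genes, 41.0% were called in either direction. Lyve1, carried by lymphatic endothelium and by perivascular macrophages, fell by 2.76 (adjusted p = 0.00025). Lymphatic endothelium is known as a source of IL-7. The part of these cell types in the levels of the 7 genes was not tested.

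**Figure D5:**
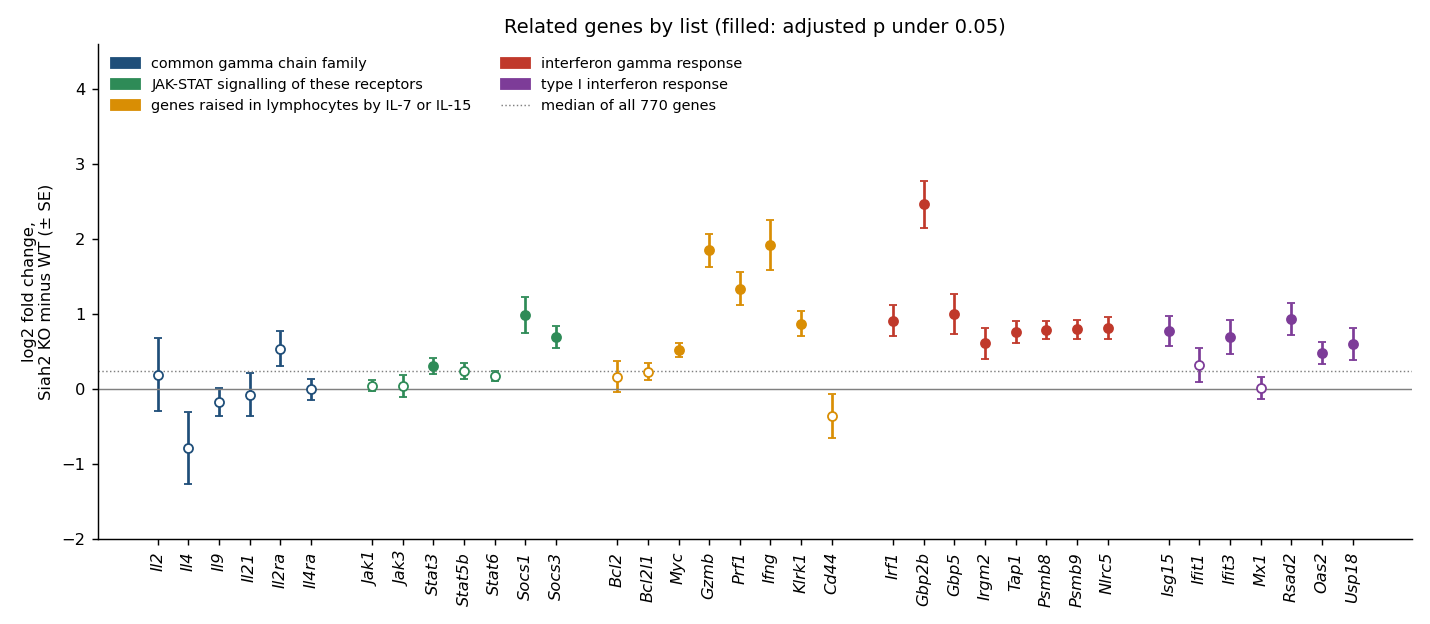
Log2 fold change, Siah2 KO minus WT, with its SE (vertical axis) of related genes (horizontal axis) in 5 lists, with a dotted line at the median of all 770 genes (0.24). Filled points passed an adjusted p of 0.05: 0 of 6 in the common gamma chain family, 3 of the 7 drawn in JAK-STAT signalling, 5 of 8 among genes raised by IL-7 or IL-15, 8 of 8 in the interferon gamma response and 5 of 7 in the type I interferon response.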

How the data were processed

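RNA from 10 tumors, 5 WT and 5 Siah2 KO, was counted with the mouse PanCancer Immune panel. The authors passed the counts through the nSolver software and normalized them to 20 reference genes, and the deposited values are this signal per probe, called normalized counts here. Dividing by the factor of each tumor, found from the steps between low values, gave totals of 382877 to 581603 counts. A fractional background was left in the values, so no count model was used. Here log2(value + 1) of 770 genes (750 endogenous and 20 reference) was compared between genotypes with lmFit and eBayes (limma 3.58.1, R 4.3.3), two-sided, with Benjamini-Hochberg adjustment over all of them and a threshold of 0.05. Single values and pairs were tested with two-sided exact permutation tests (Python 3.11.15). Folds are on the log2(value + 1) scale and understate the change of low genes. The scripts were tested on simulated data. All 7 genes were named, with every gene of the pathway lists that passed or was singled out and the 3 genes most like each. The members and lists were chosen with earlier results of these data known. Some genes are not reported here.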

Additional observations from a re-analysis of the deposited data

Results flagged for a closer look

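The WT tumors were uneven for Il2rg. WT tumor 5 had 244 normalized counts while the other 4 lay between 180.2 and 193, and its gap to the nearest tumor was 0.803 of the range of the group, above the 5% limit of Dixon's test for 5 values. Chance gives a gap past that limit in about 1 of 20 groups, and each of the 7 genes was examined in both genotypes. WT tumor 5 also had the highest Il2rb and Il21r values of its group, and the highest T cell median of the WT tumors (6.09). Its scaling factor was 1.32, against 0.918 to 0.974 in the other WT tumors. Its total before scaling, 443526 counts, was the lowest of the WT group. The part of the T cell level or of the scaling factor in the Il2rg value was not tested.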

How the results depend on the processing

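Il7r kept its direction and its call in all 20 alternatives on each of the 3 scales. With scaling to the positive control probes, 95 genes passed in place of 316 and 1 of the 7 genes was called higher in place of 4, with log2 fold changes of 0.70 for Il15ra, 0.50 for Il2rb and 0.57 for Il2rg that no longer passed. Under quantile normalization Il2rb was 0.24 and did not pass. The sign turned for Il15 under median scaling (-0.039) and quantile normalization (-0.10), for Il21r under median scaling (-0.23), quantile normalization (-0.24) and positive control scaling (-0.13), and for Il2rb relative to T cell genes under quantile normalization (-0.054). Leaving out 1 tumor at a time gave -0.12 to 0.13 for Il21r, -0.13 to 0.018 for Il2rb and -0.055 to 0.062 for Il2rg relative to leukocyte genes, -0.054 to 0.16 for Il2rb relative to T cell genes, and -0.14 to 0.0074 for the change of Il2rb minus that of Il2rg, all with values that crossed 0 and no call. Il15 relative to leukocyte genes lost its call in 9 alternatives (adjusted p up to 0.076), as did Il7 (up to 0.17), and Il7 relative to T cell genes gained one in 5, in 1 of which its values were all raised to the floor of 20. In that setting Il7 was the same in every tumor, so its change of -0.60 was the T cell shift of 0.60 with the sign reversed. The cause of the other losses and gains was not tested. Tumors that share a number in the labels did not all deviate together (r = 0.05 to 0.49 over 4 pairs). With the replicate number as a block the 8 tumors gave 235 genes, against 232 in the same 8 without it, with 4 of the 7 genes called in both, Il7r at 2.06. In these pairs 3 of 4 WT tumors correlated best with their own number, which is a hint from the data and not from the design. The edgeR alternative was not run, since the values did not come out as whole counts, and on the deposited scale Il7 gave no value where genes under 20 normalized counts were left out or raised to 20. The number of tumors and, for Il7, the background of the assay limit what could be seen.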
